A study of Mus musculus with 16 samples.

Results

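A single pair of bead arrays carried the effect of Erk2 loss in day 1 iTreg culture: CD4 T cells of Erk2 KO mice and of WT mice, both of strain C57/BL6, each cultured for 1 day under conditions that induce regulatory T cells. These are 2 of the 16 arrays of a study of Erk2 in CD4 T cell differentiation, which measured 8 conditions in both genotypes with 1 array per genotype and condition. The other day 1 pairs were Th0 (activation without a polarising setting), Th1, and Th0 given a pulse of TGF (transforming growth factor beta), of either 1 hr or 3 hr; 3 further pairs were taken at day 0 and after 3 hr of Th0 or iTreg culture. The labels give neither the promoter that deletes Erk2, nor the age of the mice, nor the cytokines of the iTreg medium, nor how many mice gave each sample. With 1 array per group, the size of each difference in the pair is given without a test.

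ERK2 is the kinase at the end of the Ras, RAF and MEK cascade that the T cell receptor switches on. It phosphorylates transcription factors that induce immediate early genes such as Egr1, and these in turn induce feedback phosphatases such as Dusp6. Activation shuts down a naive program held by the factors FOXO1 and KLF2, and starts growth, metabolism and division. In iTreg culture, TGF-beta acting with the T cell receptor induces Foxp3, the factor that defines regulatory T cells, and ERK signalling has been reported to oppose Foxp3 induction.

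All values are log2 probe intensity after background correction and quantile normalization of the 16 arrays, and a difference is the Erk2-deficient array minus the WT array. A probe was treated as measured when at least 1 of the 2 arrays showed it above background, as was the case for 13072 of 25697 probes, 11690 of them on both arrays. These probes covered 8922 genes, and a gene is represented by its brightest measured probe unless several are given. Mapk3 and Il2 are not analysed here, and the genotype of each array was taken from its label without a further check. Between 12172 and 12636 probes were above background on each of the 16 arrays. Both arrays of the pair lay side by side on the second of 2 chips, as did the Th1 and both TGF pairs, while the day 1 Th0 pair was on the first. WT and Erk2-deficient samples alternated along the chips, and the position on the chip therefore cannot be told apart from genotype.

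The 2 iTreg arrays differed more than those of any of the other 7 pairs of the study. Of the measured probes, 437 were at least 1.5-fold higher in the Erk2-deficient array (3.34%) and 194 at least 1.5-fold lower (1.48%). Past that size in either direction were 631 probes of the iTreg pair (4.83%), and only 73 to 122 probes of each other day 1 pair. The SD of the differences was 0.290 in the iTreg pair and 0.165 to 0.194 in the other day 1 pairs. The 2 arrays correlated across probes at 0.987, against 0.994 to 0.996 within the other day 1 pairs. Counted by gene, 309 were higher (3.46%) and 135 lower (1.51%), 444 in all (4.98%), and the median gene differed by −0.02. At 2-fold, 84 probes were higher and 34 lower.

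**Figure D1:**
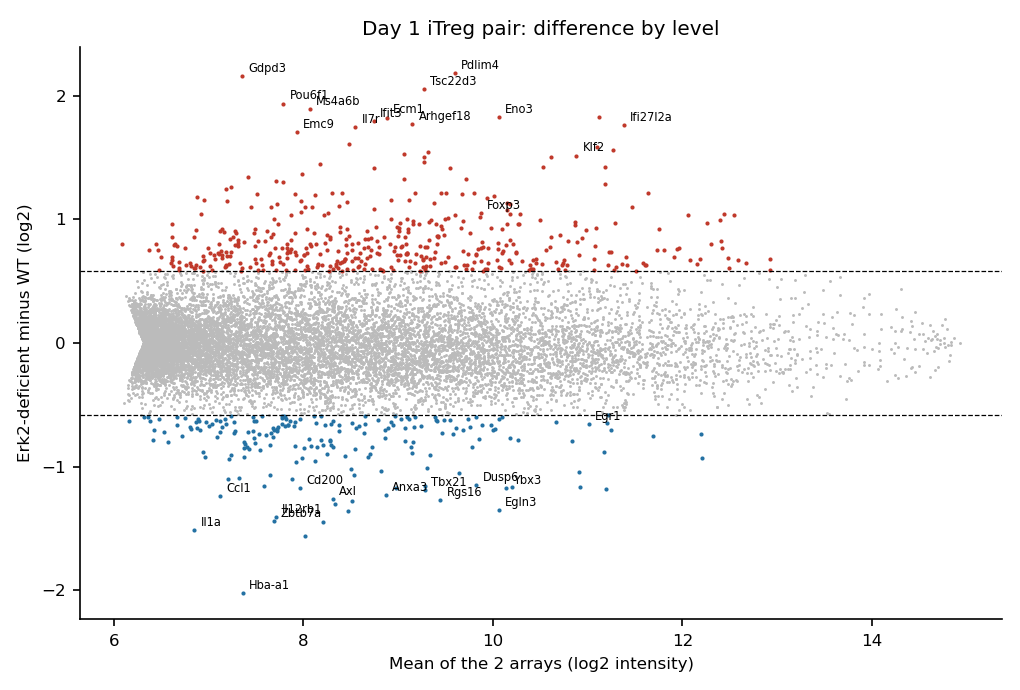
Difference of each measured probe in the iTreg pair (Erk2-deficient minus WT, log2, vertical axis) against its mean log2 intensity on the 2 arrays (horizontal axis), with dashed lines at 1.5-fold, red for the 437 higher and blue for the 194 lower probes. The named points run from Pdlim4 at 2.18 to Hba-a1 at −2.02, and differences past 1.5-fold occur over most of the intensity range.

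Both arrays of the pair stood apart from the other day 1 arrays, the Erk2-deficient one further. On the first principal component, which orders the 16 arrays by time in culture, the Erk2-deficient iTreg array scored 16.4 and the WT iTreg array 31.5. The other 8 day 1 arrays scored 29.4 to 34.7, and the 6 arrays taken before day 1 scored −56.5 to −47.0. The Erk2-deficient iTreg array deviated from the mean of the other Erk2-deficient day 1 arrays with an SD of 0.303, and the WT iTreg array from the other WT day 1 arrays with an SD of 0.229. Each of the remaining day 1 arrays, set against the others of its genotype, gave an SD of 0.124 to 0.188. Of the 437 higher probes, 244 had only the Erk2-deficient array outside the range of the other 8 day 1 arrays, 31 had only the WT array outside it and 152 had both. Of the 194 lower probes the counts were 90, 36 and 53. Among all measured probes they were 4052, 1837 and 2327. The Erk2-deficient array alone was thus outside for 55.8% of the higher, 46.4% of the lower and 31% of all measured probes. The WT array alone was outside for 7.09%, 18.6% and 14.1%. The higher and lower probes were chosen by the difference between these 2 arrays, which by itself makes it more likely that 1 of them lies outside.

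Some markers of cells other than CD4 T cells were above background on at least 1 array of the pair. Of 12 B cell markers 4 were measured, Cd79b and the antigen presentation genes Cd74, H2-Aa and H2-Ab1, none past 1.5-fold, and Ms4a1, Cd79a and Pax5 were not well above background on either array. Their summed linear intensity was 601 on the Erk2-deficient array and 596 on the WT array. Of 16 myeloid markers 6 were measured, with a summed intensity of 961 on the Erk2-deficient and 819 on the WT array, and Itgam, Cd14, Adgre1 and Itgax were not well above background on either. The calprotectin subunits S100a8 (8.72 in the Erk2-deficient and 7.52 in the WT array) and S100a9 (7.32 in the Erk2-deficient and 6.41 in the WT array) were higher in the Erk2-deficient array, while Ifitm3 (difference −0.69) and Lyz1 (−0.60) were lower. Of 11 CD8 and NK cell markers 5 were measured, with sums of 2747 in the Erk2-deficient and 2190 in the WT array, and Nkg7 (0.67) and Klrd1 (0.72) were higher. Prf1 (−0.53) was below 0. Of the CD8 chains, Cd8b1 was well above background on both arrays, at 8.98 in the Erk2-deficient and 8.73 in the WT array, and Cd8a on neither. The red cell gene Hba-a1 was 6.35 in the Erk2-deficient and 8.37 in the WT array. It was also lower in the Erk2-deficient array of every other day 1 pair, by −2.33 to −0.51, and of both 3 hr pairs (−3.457 and −3.434). In the day 0 pair it was instead higher in the array labelled Erk2-deficient, by 3.21. Hbb-bt, the other red cell gene measured, differed by −0.11 in the iTreg pair. The part of these cells in the differences below was not tested.

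Genes of the naive, quiescent T cell state formed the group with the largest upward shift among the 45 gene lists. Of 16 measured, 9 were at least 1.5-fold higher in the Erk2-deficient iTreg array and none was lower, with a median difference of 0.68 (all genes: 3.46% higher, median −0.02). In the other day 1 pairs the same genes had medians of 0.09 to 0.27. Tsc22d3, a leucine zipper protein known as GILZ, stood at 10.30 in the Erk2-deficient array and 8.25 in the WT array, a 4.14-fold difference. Il7r, the interleukin 7 receptor chain that naive cells need to survive, stood at 9.42 in the Erk2-deficient array and 7.67 in the WT array. The other 8 day 1 arrays ranged from 7.94 to 8.88 for Il7r, so the Erk2-deficient iTreg array lay above all of them and the WT iTreg array below all of them. Klf2, which drives the receptors for exit from lymphoid tissue, stood at 11.64 in the Erk2-deficient array and 10.12 in the WT array, and at 8.41 to 10.79 on the other day 1 arrays. Txnip, an inhibitor of glucose uptake, stood at 9.73 in the Erk2-deficient array, 8.40 in the WT array and 7.92 to 8.51 elsewhere at day 1. For both genes the WT iTreg array fell among the other day 1 cultures and the Erk2-deficient array above all of them. Klf2 was also higher in the Erk2-deficient array of the other day 1 pairs, by 0.43 to 1.25, beside 1.516 in the iTreg pair. Txnip differed by −0.195 to 0.118 in those pairs, beside 1.324 in the iTreg pair. Klf3 (difference 1.00), Igfbp4 (0.97), the chromatin organiser Satb1 (0.68) and the Wnt pathway factor Lef1 (0.68) were also past 1.5-fold, and Pik3ip1, an inhibitor of PI3 kinase, was at least 1.67-fold higher, since its WT level was not well above background. The homing receptor Ccr7 (0.51), the brightest probe of Btg1 (0.45) and Tob1 (0.39) differed by less. Foxo1 (0.05), Foxp1 (−0.05), Dapl1 (0.01) and Slfn2 (−0.10) hardly differed. The other Btg1 probes differed by 0.74 and 0.67, both past 1.5-fold.

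The promoter of Txnip is shown because it holds a FOXO core motif, GTAAACA, marked in capitals; it spans chr3:96557707-96558006 on the plus strand of GRCm38.p6 (RefSeq), from 250 bases before to 50 bases after the gene's start, and is written 5′ to 3′.
Txnip: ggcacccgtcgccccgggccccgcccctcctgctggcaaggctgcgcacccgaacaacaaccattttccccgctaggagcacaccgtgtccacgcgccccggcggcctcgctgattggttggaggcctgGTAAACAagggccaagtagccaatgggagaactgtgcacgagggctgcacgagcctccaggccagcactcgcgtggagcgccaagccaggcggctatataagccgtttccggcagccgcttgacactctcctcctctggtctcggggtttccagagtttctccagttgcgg
Promoter windows were found for 15 of the 16 measured genes of this list, 26 windows in all, and 3 of these held the motif on either strand, those of Txnip, Btg1 and Dapl1. Over all 32851 mouse promoter windows of the same length 3.65% held it. The match describes letters in the window and not a bound site. On their brightest probes the 3 genes differed by 1.32, 0.45 and 0.01.

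Some of the surface molecules that define the T cell were higher. Of 8 measured T cell markers 4 were at least 1.5-fold higher and none lower (all genes: 3.46% higher, 1.51% lower). Their median was 0.56, against medians of 0.03 to 0.12 in the other day 1 pairs. Thy1 stood at 13.06 in the Erk2-deficient array and 12.03 in the WT array, and the CD3 chains Cd3g (0.99) and Cd3d (0.65) and the adhesion receptor Cd2 (0.92) were past 1.5-fold too. Cd4 (0.22), Cd3e (0.31) and the brightest probe of Cd28 (0.48) were not, and Cd5, whose level follows receptor signal strength, was −0.28. The other Cd28 probes differed by 0.79 and 0.84, both past 1.5-fold. Among 17 genes of proximal T cell receptor signalling, 3 were past 1.5-fold, all higher, Cd3g, Cd3d and Themis (0.61), with a list median of 0.08 that was −0.02 when arrays were scaled to a common 75th percentile. Rasgrp1, which loads Ras with GTP below the receptor and so acts upstream of ERK2, stood at 12.02 in the Erk2-deficient array and 10.92 in the WT array. It was the only one of 8 measured ERK cascade components past 1.5-fold, and its difference of 1.10 compares with 0.33 to 0.49 in the other day 1 pairs. Of 7 Gimap genes, GTPases of lymphocyte survival, Gimap3 was past 1.5-fold (1.05), and the list median was 0.50.

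Foxp3, the factor by which iTreg cells are recognised, stood at 10.40 in the Erk2-deficient iTreg array and at 9.35 in the WT iTreg array. The other Erk2-deficient day 1 arrays had 7.56 to 7.84 and the other WT day 1 arrays 7.09 to 7.31, so both iTreg arrays carried the iTreg mark and the Erk2-deficient one was higher. Its other 2 probes differed by 0.94 and 0.77 in the same direction. In the other day 1 pairs the brightest Foxp3 probe was also higher in the Erk2-deficient array, by 0.45 to 0.54. The iTreg difference of 1.05 departed from those by 0.56 (SE 0.128, limma adjusted p = 0.0132), a call that 10 of 14 alternative settings kept; the test is set out further on. Of 17 measured Treg genes 5 were at least 1.5-fold higher and none was lower (all genes: 3.46% higher, 1.51% lower). Their median was 0.20 in the iTreg pair and 0.13 to 0.22 in the other day 1 pairs, so the list median lay within the range of the other cultures. Besides Foxp3 the 5 were Gpr83 (11.21 in the Erk2-deficient and 10.38 in the WT array), Tnfrsf18, the receptor GITR (0.74), the Foxp3 partner Ikzf4 (0.68) and the semaphorin receptor Nrp1 (0.60). Nt5e, the ectoenzyme CD73, differed by 0.58, Ctla4 by 0.20 and Il2ra, the high affinity IL-2 receptor chain, by 0.21. Tgfb1 (−0.42), Ebi3 (−0.44), Socs2 (−0.50) and Capg (−0.56) were below 0 without passing 1.5-fold.

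Th1 genes split. Tbx21, which encodes T-bet, the factor of Th1 cells, stood at 8.69 in the Erk2-deficient iTreg array and 9.88 in the WT iTreg array. Every other day 1 array, Th1 culture included, lay between 9.70 and 10.23, so the Erk2-deficient iTreg array alone was below that range. Il12rb1, a chain of the IL-12 receptor, stood at 7.00 in the Erk2-deficient array, 8.41 in the WT array and 8.24 to 9.14 elsewhere at day 1, and its second probe differed by −0.82. The chemokines Ccl3 (−0.83) and Ccl4 (−0.74) were lower as well. Il18r1, a receptor chain for IL-18, was in contrast 8.11 in the Erk2-deficient and 6.90 in the WT array, and Stat4, which relays IL-12 signals, was 8.89 in the Erk2-deficient and 8.27 in the WT array. In the other day 1 pairs Stat4 was lower in the Erk2-deficient array, by −0.54 to −0.23. In all, 2 of 12 measured Th1 genes were higher and 4 lower (all genes: 3.46% higher, 1.51% lower). Their median was −0.29 against −0.27 to −0.13 in the other day 1 pairs. Ifng, the main Th1 cytokine, differed by −0.25.

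Of 8 Th2 genes 2 were higher and none lower (all genes: 3.46% higher, 1.51% lower). Gata3, the Th2 factor, stood at 9.99 in the Erk2-deficient iTreg array and 8.99 in the WT iTreg array, a difference of 1.01 that compares with 0.88 to 1.01 in the other day 1 pairs. Its level on both iTreg arrays lay between the Th1 arrays (9.17 in Erk2-deficient, 8.16 in WT) and the Th0 arrays (10.62 in Erk2-deficient, 9.74 in WT). The cytokine Il4 was 8.36 in the Erk2-deficient and 7.65 in the WT array, again close to its other pairs (0.54 to 0.80). Of 4 measured Th17 genes Rora (−0.47) and Ccr6 (−0.39) were below 0, Il17f and Il1r1 were not well above background in the Erk2-deficient array, and none passed 1.5-fold. Ccr6, a chemokine receptor of Th17 and regulatory cells, was higher in the Erk2-deficient array of the other 4 day 1 pairs, by 0.77 to 1.00. Its level was 9.06 on the Erk2-deficient and 9.45 on the WT iTreg array, both above the 6.79 to 8.61 of the other day 1 arrays.

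**Figure D2:**
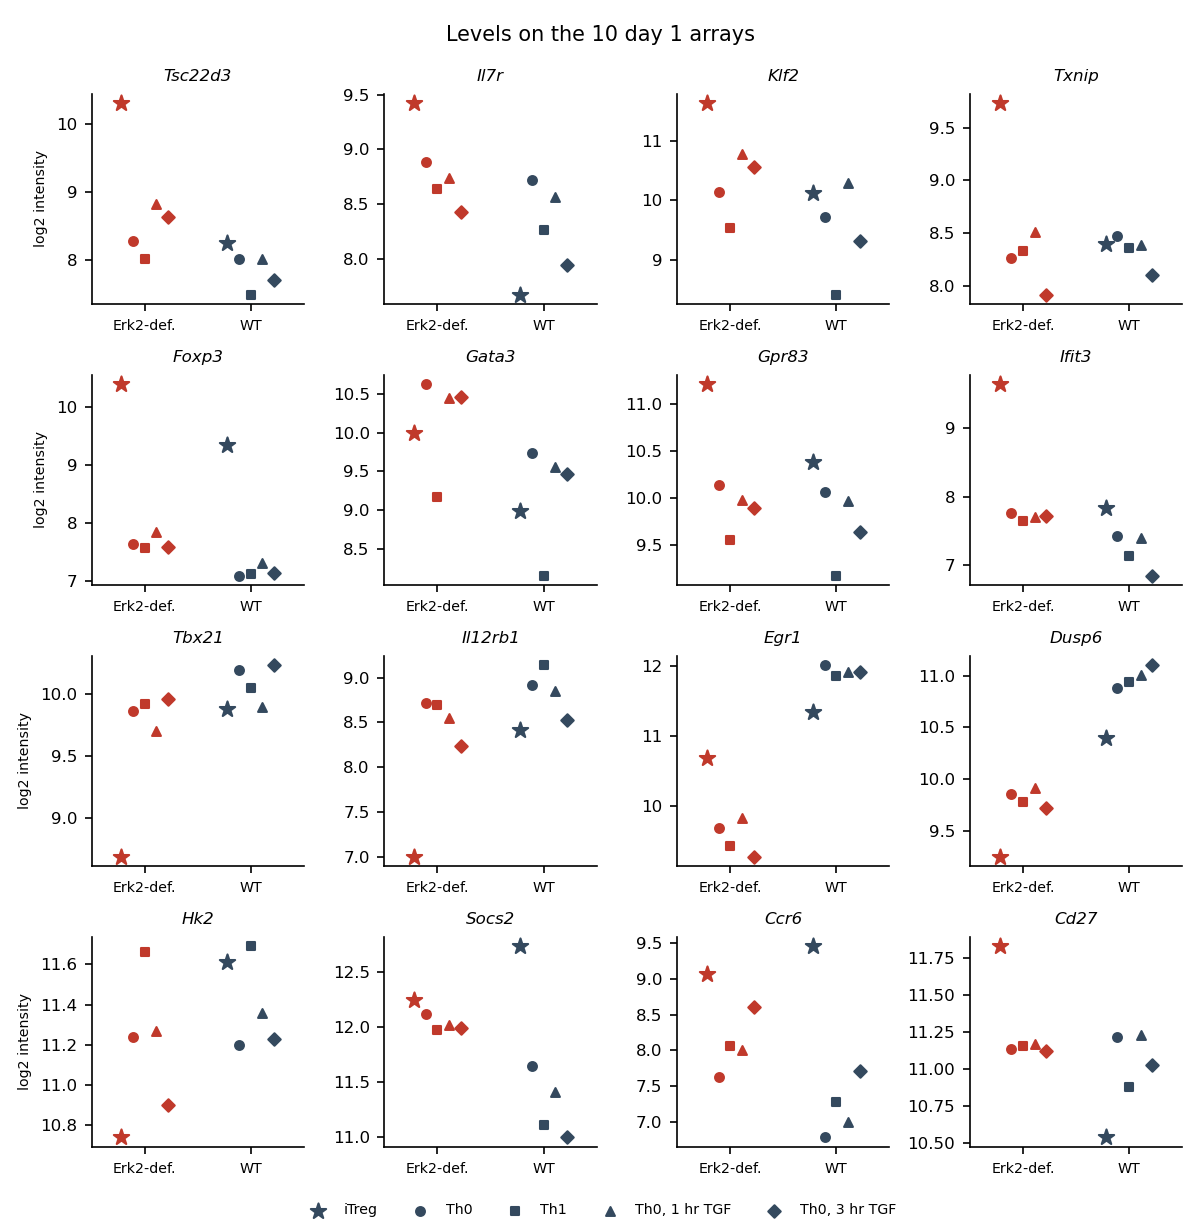
Level of 16 genes (log2 intensity, vertical axes that do not start at 0) on the 10 day 1 arrays, Erk2-deficient arrays in red at the left of each panel and WT arrays in dark blue at the right, with a star for iTreg culture and the symbols of the legend for the others; each point is 1 array. The Erk2-deficient iTreg star lies above every other array for Tsc22d3, Il7r, Klf2, Txnip, Foxp3, Gpr83, Ifit3 and Cd27 and below every other array for Tbx21, Il12rb1, Dusp6 and Hk2.

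Targets of ERK signalling had a downward median in every day 1 pair, with a minority of them past 1.5-fold. Among the 18 ERK-responsive genes and feedback inhibitors measured, 5 were at least 1.5-fold lower and none higher (all genes: 1.51% lower, 3.46% higher). Their median was −0.39 against −0.31 to −0.16 in the other day 1 pairs. The feedback phosphatase Dusp6 stood at 9.25 in the Erk2-deficient iTreg array and 10.40 in the WT iTreg array, and its difference of −1.15 lay within the −1.39 to −1.04 of the other day 1 pairs. The phosphatase Dusp4 (−0.79) lay within its other pairs too. The zinc finger factor Egr2 stood at 9.79 in the Erk2-deficient array and 10.56 in the WT array, and its difference of −0.77 was smaller in size than the −1.56 to −0.93 of the other pairs. Egr1 showed this more. It stood at 10.68 in the Erk2-deficient and 11.34 in the WT iTreg array, a difference of −0.66, while in the other day 1 pairs it differed by −2.65 to −2.09. Its level was higher in the Erk2-deficient iTreg array than in the other Erk2-deficient day 1 arrays (9.27 to 9.82), and lower in the WT iTreg array than in the other WT day 1 arrays (11.86 to 12.01). Spred1, an inhibitor of Ras to RAF signalling, went the other way, with −0.83 in the iTreg pair and −0.29 to −0.11 elsewhere. Fos, a subunit of AP-1, was 0.39 in the iTreg pair and −0.63 to −0.28 elsewhere, and Myc (0.15) and Jun (0.02) hardly differed.

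Activation genes outside that set were mixed with a downward median. Of 20 measured, 5 were lower and 1 was higher (all genes: 1.51% lower, 3.46% higher). The median was −0.31, against −0.25 to −0.06 in the other day 1 pairs. Lta, a ligand of the TNF family, stood at 11.74 in the Erk2-deficient and 12.67 in the WT array, and the early activation marker Cd69 at 11.32 in the Erk2-deficient and 12.07 in the WT array. Tnf (−0.78), Slamf1 (−0.79) and the memory marker Cd44 (−0.65) were the others, each within the range of its other day 1 pairs. The exception was Tnfrsf9, the costimulatory receptor 4-1BB, at 9.70 in the Erk2-deficient and 8.74 in the WT array, with −0.01 to 0.09 in the other pairs. Batf (−0.56), an AP-1 factor of effector T cells, and Cebpb (−0.50) were below 0 here and above 0 in each of the other 4 day 1 pairs.

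Receptors of the TNF family and of cytokines were the other surface molecules with large differences. Cd27, a costimulatory receptor of naive cells, stood at 11.83 in the Erk2-deficient array and 10.54 in the WT array, while the other 8 day 1 arrays lay between 10.88 and 11.23. The Erk2-deficient iTreg array was thus above them and the WT iTreg array below them. Of 18 measured TNF superfamily genes 4 were higher, including Ltb (0.65), and 3 lower, including Tnfsf14 (−0.71). Over all genes, 3.46% were higher and 1.51% lower. Of 20 interleukins and receptors 6 were higher, among them Il6st, the shared receptor chain gp130 (0.71), and Il10ra, at least 1.72-fold higher because its WT level was not well above background. The 1 that was lower was Il12rb1. Gpr183, an oxysterol receptor that guides lymphocytes, stood at 9.83 in the Erk2-deficient and 8.30 in the WT array, and Cxcr4 differed by 0.69. Among 16 genes of cytokine signalling and its feedback, 3 were higher and none lower. Socs3, which blocks signalling through gp130, stood at 10.02 in the Erk2-deficient and 8.51 in the WT array, and the kinase Jak1 differed by 0.62. Socs2 went against the other cultures. It stood at 12.24 in the Erk2-deficient iTreg array and 12.73 in the WT iTreg array (difference −0.50), while the other day 1 pairs differed by 0.47 to 0.99 with the Erk2-deficient array higher.

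Interferon-inducible genes had a median of 0.35 over 11 measured type I genes, against 0.16 to 0.22 in the other day 1 pairs. Of the 11, 2 were at least 1.5-fold higher and none lower (all genes: 3.46% higher, 1.51% lower). Without the background filter, which adds genes below background, the median was 0.11. Ifit3, an antiviral effector, stood at 9.64 in the Erk2-deficient and 7.84 in the WT array, with 6.85 to 7.76 on the other day 1 arrays, and its other 2 probes differed by 1.15 and 1.25. Usp18, a brake on the interferon receptor, differed by 0.73, within the 0.52 to 0.84 of the other pairs. Ifi27l2a, an interferon-induced gene outside the list, was 12.26 in the Erk2-deficient and 10.50 in the WT array. Among 14 genes of the immunoproteasome and of MHC class I loading, H2-D1 (0.77) alone was past 1.5-fold on its brightest probe. Of the 14, 12 were above 0 and the median was 0.27. A less bright probe of Tapbp (0.80) and of Psme1 (0.67) was past 1.5-fold too, where their brightest differed by 0.33 and 0.10. Of 9 interferon-gamma GTPases Gbp5 was lower (−0.64) and none was higher.

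The promoter of Ifit3 is shown with its matches to the core of the interferon-stimulated response element, which is GAAA, any pair of bases and GAAA, or the reverse complement of these letters, in capitals; it spans chr19:34583279-34583578 on the plus strand of GRCm38.p6 (RefSeq), with the same limits around the gene's start.
Ifit3: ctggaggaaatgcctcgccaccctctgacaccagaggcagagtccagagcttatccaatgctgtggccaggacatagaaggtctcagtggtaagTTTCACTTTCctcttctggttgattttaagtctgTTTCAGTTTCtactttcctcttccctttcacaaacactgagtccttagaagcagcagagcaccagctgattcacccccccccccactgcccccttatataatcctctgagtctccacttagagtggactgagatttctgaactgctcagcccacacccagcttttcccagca
Windows were found for 9 of the 11 measured type I genes, 12 windows in all, and 5 of them held this motif, those of Ifit3, Isg15, Bst2, Stat2 and Ddx58, against 3.44% of all windows. None of the 26 windows of the naive and quiescence genes held it. Genes with a match differed both ways, Ifit3 by 1.80 and Bst2 by −0.41.

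Several lists of growth and division genes had medians slightly below 0. Few single genes passed 1.5-fold, so these groups are given by how many members lay below 0. Of 28 mitosis and kinetochore genes 27 were below 0, with a median of −0.23 against −0.02 to 0.02 in the other day 1 pairs, and Kif11, a spindle motor (8.51 in the Erk2-deficient and 9.21 in the WT array), and the kinetochore subunit Spc24 (−0.63) were past 1.5-fold. Of 21 mitochondrial ribosome genes 20 were below 0 (median −0.23), of 20 ribosome biogenesis genes 18 (median −0.25), and of 26 translation factors and tRNA synthetases 23 (median −0.16). Rrp9, which processes ribosomal RNA, was the 1 ribosome biogenesis gene past 1.5-fold, at 9.87 in the Erk2-deficient and 10.65 in the WT array. Of 32 DNA replication genes 23 were below 0 with a median of −0.16, and none was past 1.5-fold. Over all 8922 genes 4795 were below 0. Cytosolic ribosomal proteins went against these lists, with 16 of 24 above 0 and a median of 0.04, and the respiratory chain had a median of 0.02, or −0.06 with 75th percentile scaling.

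Metabolic lists had medians slightly below 0 as well. Over all genes 1.51% were at least 1.5-fold lower, 4795 of 8922 were below 0 and the median was −0.02. Hk2, the inducible hexokinase that commits glucose to glycolysis, stood at 10.74 in the Erk2-deficient iTreg array, 11.61 in the WT iTreg array and 10.90 to 11.69 on the other day 1 arrays. It was the only one of 20 glycolysis genes past 1.5-fold, while 15 of the 20 were below 0 and the median was −0.19. Of 17 cholesterol synthesis genes Lss, which forms lanosterol, was lower (7.99 in the Erk2-deficient and 9.01 in the WT array), 11 were below 0 and the median was −0.22. Of 12 fatty acid synthesis genes 11 were below 0 (median −0.29), with the desaturase Scd2 at −0.64. Of 12 serine and one-carbon genes 10 were below 0 (median −0.26). In each of these 4 lists the iTreg median lay below the range of the other day 1 pairs.

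**Figure D3:**
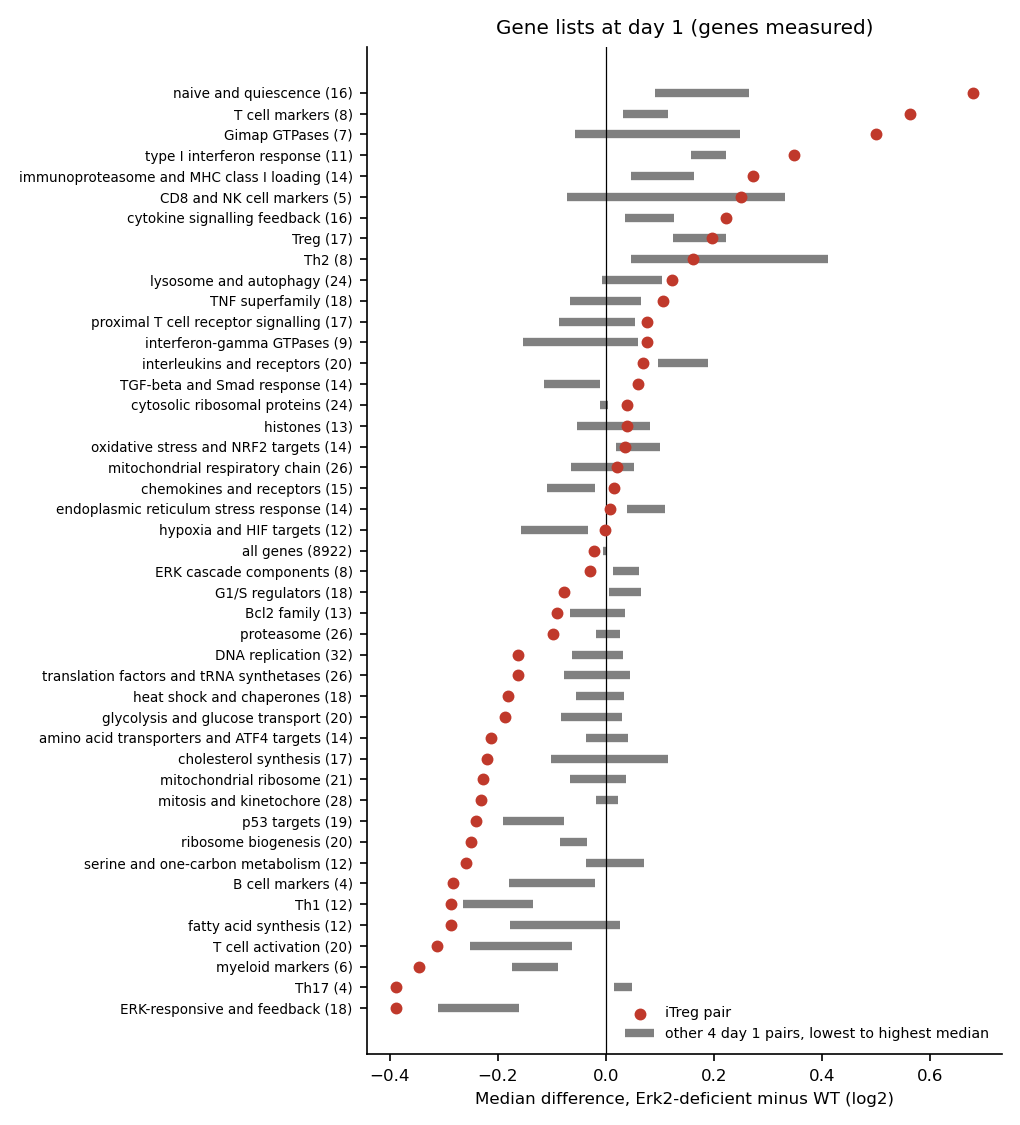
Median difference of each gene list with at least 4 measured genes (Erk2-deficient minus WT, log2, horizontal axis; number of measured genes in brackets) in the iTreg pair (red point) and from the lowest to the highest median of the other 4 day 1 pairs (grey bar). The naive and quiescence list lies at 0.68, far right of its bar, and the mitosis, DNA replication, ribosome biogenesis, glycolysis, cholesterol and fatty acid synthesis lists lie left of theirs, while cytosolic ribosomal proteins lie right of theirs.

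Survival and stress genes were divided. Of 13 measured Bcl2 family genes, Bcl2l11, the death activator BIM that FOXO factors induce, stood at 8.56 in the Erk2-deficient and 7.67 in the WT array, the survival protein Bcl2 at 10.18 in the Erk2-deficient and 9.46 in the WT array, and Bcl2l2 was lower (−0.67). Among 19 p53 targets, the stress-induced sestrins Sesn1 (0.93) and Sesn2 (−1.10) went opposite ways. Cdkn1a, the cell cycle inhibitor p21, was 9.37 in the Erk2-deficient and 10.20 in the WT array, a difference of −0.84 beside −0.72 to −0.62 in the other day 1 pairs. The TGF-beta and Smad response list had a median of 0.06 over 14 genes, with the receptor Tgfbr2 higher (0.64) and Cdkn1a lower. Egln3, an oxygen-sensing prolyl hydroxylase, was 9.38 in the Erk2-deficient and 10.74 in the WT array. It was the only one of 12 hypoxia genes past 1.5-fold, beside 4.98% of all genes.

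Outside the lists, the largest upward differences were those of Pdlim4, Gdpd3, Pou6f1, Ms4a6b, Eno3, Ecm1, Arhgef18, Ifi27l2a and Emc9. Pdlim4, a cytoskeletal adaptor, stood at 10.69 in the Erk2-deficient and 8.51 in the WT array, and the muscle enolase Eno3 at 10.98 in the Erk2-deficient and 9.15 in the WT array. Gdpd3, a lysophospholipase, was 8.43 in the Erk2-deficient array and not well above background in the WT array, which makes it at least 4.36-fold higher. These 3 were at least 1.5-fold higher in all other day 1 pairs as well. In the day 0 pair Gdpd3 was instead lower in the array labelled Erk2-deficient, by −3.485. Pou6f1, a POU domain factor, stood at 8.76 in the Erk2-deficient and 6.82 in the WT array, and Ms4a6b, a membrane protein of T cells, at 9.01 in the Erk2-deficient and 7.13 in the WT array. Pou6f1 differed by less than 1.5-fold in all other day 1 pairs and Ms4a6b in all but 1. The largest downward differences outside the lists were those of Il1a, Zbtb7a, Rgs16, Axl, Anxa3, Cd200 and Ybx3. The cytokine Il1a was not well above background in the Erk2-deficient array and 7.60 in the WT array, at least 2.45-fold lower. The repressor Zbtb7a stood at 6.97 in the Erk2-deficient and 8.41 in the WT array, while its other day 1 pairs differed by −0.08 to 0.00.

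A small core of probes was past 1.5-fold in the same direction in each of the other 4 day 1 pairs, and most of them also in the iTreg pair. Of 10 probes at least 1.5-fold higher in each of the other 4 day 1 pairs, 8 were past 1.5-fold in the iTreg pair too, among them Gata3, Eno3, Pdlim4, Gdpd3, the filament protein Vim (0.72) and Nkg7. The other 2 were Ccr8 (0.41) and Ccr6, which had the opposite sign (−0.386). Of 19 probes lower in each of the other 4 pairs, 18 were lower in the iTreg pair by at least 1.5-fold, including both probes of Dusp6, Egr1, Egr2, Cdkn1a, the signalling inhibitor Rgs16, the growth factor Pdgfb (−1.16), the chemokine Ccl1 (−1.23) and the receptor kinase Axl (−1.26). Nrn1 (−0.44) was the exception. Sizes were not always alike: Egr1 was −0.656 in the iTreg pair and −2.647 to −2.092 in the others, and Pdlim4 was 2.183 beside 0.805 to 1.47. Of the 437 higher and 194 lower probes of the iTreg pair, 386 and 146 were past 1.5-fold the same way in no other day 1 pair. Those pairs had few probes past that size at all, 73 to 122 each. Direction alone was shared more often: 233 of the 437 and 121 of the 194 had the same sign in all 4 other pairs. How often any measured probe has 1 sign in all these pairs was not computed, so the counts stand without a baseline.

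Whether the iTreg difference departed from the other cultures can be tested, although the pair itself cannot. The difference in the iTreg pair was set against the mean of the 4 other day 1 differences in limma, with adjustment over all 13072 probes and the lone pair assumed to vary like the other 4. With 1 pair that assumption could not be checked. All but the Th1 pair of the other 4 were Th0 culture, plain or with a TGF pulse, and the fit treated the 4 as independent. If such related cultures vary less among themselves than unlike ones, the SEs of the fit are too small. Over probes, the iTreg differences were more widely spread (SD 0.290) than those of the other pairs (0.165 to 0.194). If the lone pair varied more than the others, the SEs and adjusted p-values of this test are too small. It departed upward for 528 probes (4.04%) and downward for 269 (2.06%), 797 in all (6.1%), at an adjusted p under 0.05. Il7r departed by 1.45 (SE 0.144, adjusted p = 1.55e-05), Txnip by 1.40 (SE 0.143, adjusted p = 1.55e-05) and Tsc22d3 by 1.42 (SE 0.183, adjusted p = 0.000155). Egr1 departed upward by 1.72 (SE 0.163, adjusted p = 1.39e-05), although it was lower in the Erk2-deficient array of all 5 pairs: its iTreg difference was the smallest of the 5 in size. Tbx21 departed by −0.96 (SE 0.132, adjusted p = 0.00029) and Il12rb1 by −1.10 (SE 0.134, adjusted p = 0.000103). Ccr6 departed by −1.26 and Socs2 by −1.23, and both had the opposite sign in the iTreg pair from that in the other 4. By list, 7 of 16 naive and quiescence genes and 4 of 8 T cell markers departed upward and none downward, against 4.24% upward and 1.98% downward of all genes. Dusp6 (0.02, adjusted p = 0.956), Gata3 (0.06, adjusted p = 0.829) and Klf2 (0.69, adjusted p = 0.085) did not pass in this fit.

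**Figure D4:**
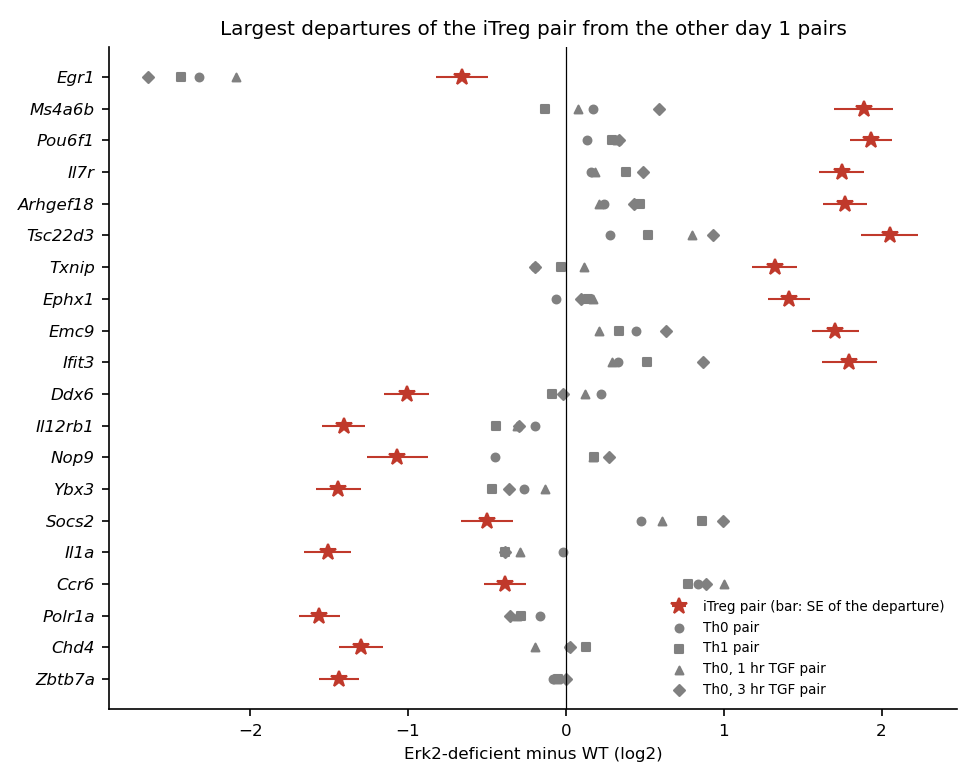
Difference in the 5 day 1 pairs (Erk2-deficient minus WT, log2, horizontal axis) for the 20 probes with the largest tested departure, 10 upward and 10 downward, with a red star for the iTreg pair, its bar the SE of the departure, and grey symbols for the other 4 pairs. For each probe the star lies outside the 4 grey symbols, and for Ccr6 and Socs2 it lies on the other side of 0; the Erk2-deficient iTreg level of Il1a was not well above background.

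The genes of the pair were set beside the course of activation in WT cells, read from arrays that are not part of the pair. Of the 437 probes higher in the Erk2-deficient iTreg array, 263 (60.2%) were at least 1.5-fold lower at day 1 than at 3 hr of WT Th0 culture, compared with 15.4% of all measured probes. Another 16 (3.66%) were higher at day 1, compared with 15.8% of all. Against the array labelled WT at day 0, 367 (84.0%) of these 437 were lower at day 1 of WT Th0 culture, compared with 18.1% of all probes. The 2 day 0 arrays, labelled WT and Erk2-deficient, differed past 1.5-fold at 33 probes. Of the 194 probes lower in the Erk2-deficient iTreg array, 65 (33.5%) were higher at day 1 than at 3 hr and 123 (63.4%) were higher at day 1 than at day 0, compared with 15.8% and 19.6% of all probes. Probes higher in the Erk2-deficient array were thus mostly ones that WT cells switch down during the first day, and probes lower in it more often ones that WT cells switch up. Across the 13072 probes the difference in the iTreg pair correlated with the WT change between 3 hr and day 1 at r = −0.36, and those of the Th1 and both TGF pairs at −0.05 to 0.00. These correlations describe probes that share arrays and are not independent. The naive list changed by a median of −1.25 over that WT interval, the mitosis list by 2.36 and the ERK-responsive list by −0.85. The ERK-responsive genes went against this pattern, being lower at day 1 than at 3 hr of WT culture and lower in the Erk2-deficient array of the pair. Whether the Erk2-deficient iTreg culture differed from the others in its timing was not tested.

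**Figure D5:**
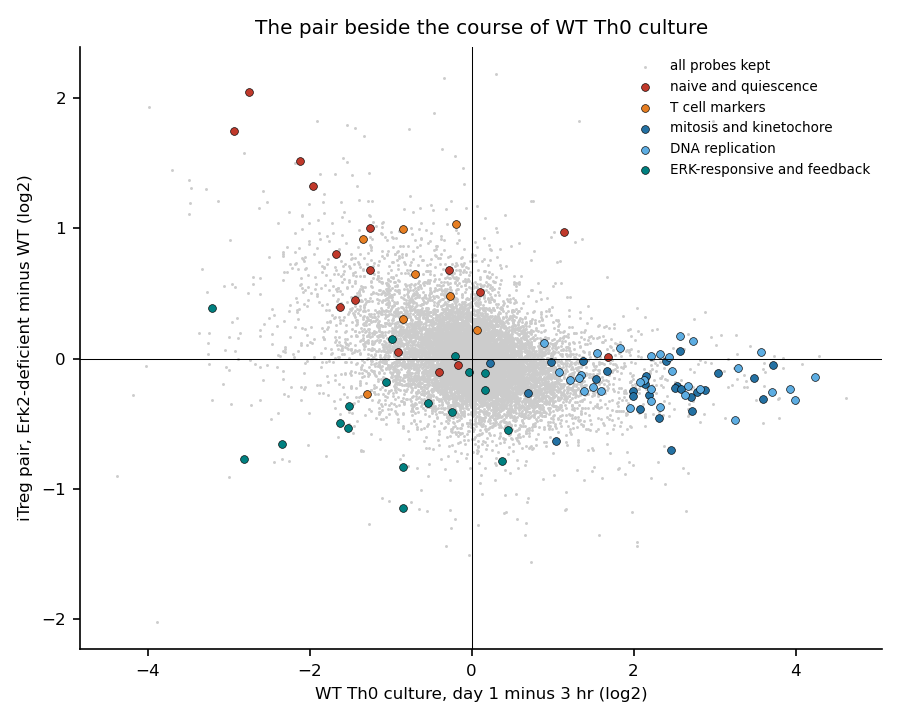
Difference in the iTreg pair (Erk2-deficient minus WT, log2, vertical axis) against the change in WT Th0 culture (day 1 minus 3 hr, log2, horizontal axis) for all measured probes in grey and the genes of 5 lists in colour. Naive and quiescence genes lie mostly at upper left, mitosis and DNA replication genes at right just below 0, and ERK-responsive genes at lower left.

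Probes of the same gene mostly gave the same direction, with some exceptions. Of 2350 genes with at least 2 measured probes, 195 had a probe past 1.5-fold in the iTreg pair; in 47 of these all probes were past it in the same direction and in 18 another probe had the opposite sign. Probes of 11 genes spanned at least 1 log2 unit in the iTreg pair, against 1 gene in each of the other day 1 pairs. Polr1a, the large subunit of RNA polymerase I, differed by −1.56, −0.31 and −0.13 on 3 probes, Chd4, a chromatin remodeller, by −1.30, −0.15 and 0.33, and Ecm1 by 1.82 and 0.25. For these 3 the large value is that of a single probe. The second probe of Il7r (at least 1.28-fold higher) and of Tsc22d3 (0.86) shared the direction of the first.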

How the data were processed

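Total RNA of mouse CD4 T cells was measured on Illumina bead arrays; per the labels' protocols it was extracted with Trizol, treated with DNase and turned into biotinylated cRNA. The deposited non-normalized table gives linear probe intensity and lacks detection p-values and control probes. The authors normalized the intensity of the series matrix, how is not given in the sources used here; it served as an alternative, and each of the 16 arrays correlated best with its own column of it. Scanner software is not given in the sources used here.

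Intensities were corrected with normexp (offset 50), quantile normalized over 16 arrays and log2 transformed (limma 3.58.1, R 4.3.3). A probe was above background past the 99th percentile of a normal curve fitted around the mode of an array's log2 intensity. Of 25697 probes 23978 had 1 symbol in the platform annotation, updated through RefSeq, and 1719 had none; 13072 were measured on at least 1 array of the pair, 12313 with a symbol. A level not well above background was replaced by the array's lowest signal above background to give an "at least" fold. The departure test used lmFit and eBayes on the 5 within-pair day 1 differences with Benjamini-Hochberg adjustment. It was tested on simulated data in which the lone pair varied like the other 4, so that assumption itself was not tested. Labels do not say whether samples came from separate animals, so the spread behind the p-values may be technical. The number of arrays limits the precision.

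Named genes are the 12 largest differences each way, up to 4 per list, a fixed panel (Mapk3, Foxp3, Gata3, Tbx21, Ifng, Il2, Il2ra, Ctla4, Egr1, Egr2, Dusp6, Klf2) and the 10 largest departures each way; further list members and genes of other sets, such as Vim, Pdgfb, Nrn1, Ccr8, Batf, Cebpb and Gimap3, were named after their values were seen. The members, the 45 lists (767 of 865 genes with a probe) and the tests were chosen with earlier results of these data known. An item that the rule for named genes had included is not reported here. Of 11 motifs searched on both strands of the promoter windows, 2 are reported. Alternatives covered background correction, normalization, probe filter, fold threshold, the probe chosen per gene and the pairs and prior of the departure fit.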

Additional observations from a re-analysis of the deposited data

Results flagged for a closer look

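Several genes had a genotype difference in iTreg culture that departed from the other 4 day 1 pairs by the limma test of the difference itself (adjusted p under 0.05 over all probes). All departures are log2 values. With the iTreg pair above the others, the values were 1.72 for Egr1, 1.71 for Ms4a6b, 1.66 for Pou6f1, 1.45 for Il7r, 1.43 for Arhgef18, 1.42 for Tsc22d3 and 1.40 for Txnip. Ephx1, an epoxide hydrolase, departed by 1.33, Emc9 by 1.30, Ifit3 by 1.29, Ecm1 by 1.27, Pdlim4 by 1.17 and Ifi27l2a by 1.14. Smaller departures upward were those of Gdpd3 (0.96), Foxp3 (0.56) and Eno3 (0.50). The WT iTreg level of Gdpd3 was not well above background, so its value rests in part on an unmeasured level. Of these genes Egr1 was lower in the Erk2-deficient array of all 5 pairs, and least so in iTreg culture.

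With the iTreg pair below the others, the values were −1.39 for Zbtb7a, −1.29 for Chd4, −1.28 for Polr1a, −1.26 for Ccr6, −1.24 for Il1a and −1.23 for Socs2. Ybx3, a cold shock domain protein, departed by −1.14 and −1.03 on 2 probes, Nop9 by −1.11, Il12rb1 by −1.10 and Ddx6, an RNA helicase, by −1.07. Tbx21 (−0.96), Cd200 (−0.89), Egln3 (−0.73) and Anxa3 (−0.67) departed as well. The Erk2-deficient iTreg level of Il1a was not well above background, so its value likewise rests in part on an unmeasured level. Only 1 pair stands on the iTreg side of this test. The large values of Chd4, Polr1a and Ecm1 come from 1 of several probes of each gene.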

How the results depend on the processing

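With 1 array per group, the counts in the pair have no error of their own, and the effects of position on the chip and of the animal could not be checked. With an offset of 16 instead of 50 in the background correction, 676 probes were at least 1.5-fold higher and 374 lower, 175 departed upward and 86 downward, and the share of higher probes that were lower at day 1 than at day 0 of WT Th0 culture was 79.4% instead of 84.0%. Without background correction 118 probes were lower. At a 2-fold threshold 84 were higher and 34 lower. A fit of all 16 arrays gave 235 upward and 115 downward departures. Leaving out 1 of the other 4 day 1 pairs gave 430 to 523 upward and 199 to 286 downward departures; without the Th0 pair, which leaves pairs of the second chip alone, they were 430 and 221. The other settings (75th percentile scaling, cyclic loess, quantile over the 2 arrays, the series matrix, no filter, both arrays above background, a trended and robust prior) kept each of these counts within 1.5 times. Scaling moved the median of all probes by less than 0.1. The departure of Foxp3 was lost with the smaller offset, the series matrix values, the trended prior and the 16-array fit (highest adjusted p = 0.186), and those of Tbx21 and Pdlim4 with the 16-array fit (adjusted p = 0.0583 and 0.0754). Departures were also lost for Eno3 in 5 settings, one of them without the Th1 pair, for Gdpd3 in 3, for Egln3 in 2 and for Anxa3, Ecm1 and Nop9 with the smaller offset. Of 193 named probes that were recomputed, none of those past 1.5-fold changed sign; other genes named in the text were not recomputed singly. The naive and quiescence median ranged from 0.51 to 0.70 and the ERK-responsive median from −0.46 to −0.18. Medians that changed sign were those of the B cell (−0.47 to 0.09) and myeloid markers (−0.60 to 0.05), proximal T cell receptor signalling (−0.02 to 0.25), the respiratory chain (−0.06 to 0.06), histones (−0.04 to 0.07), the endoplasmic reticulum stress response (−0.01 to 0.02) and hypoxia genes (−0.06 to 0.03). The type I interferon median ranged from 0.11 to 0.41, lowest without the filter. Of 405 list medians recomputed, 324 moved by less than the SD over the other 4 pairs. The departure test is built on the within-pair differences of the 5 day 1 pairs. Within the iTreg pair there is nothing further to pair.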

Other observations

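The iTreg culture was also sampled after 3 hr, as another pair. The naive and quiescence genes had a median difference (Erk2-deficient minus WT, log2) of 0.68 at day 1, beside 0.17 at 3 hr, and the ERK-responsive genes −0.39 at both times. Treg genes had a median of 0.20 at day 1 and −0.33 at 3 hr, and Th1 genes −0.29 at day 1 and −0.61 at 3 hr. Foxp3 stood at 7.99 in the Erk2-deficient and 8.51 in the WT array at 3 hr. The mitosis list had a median of −0.23 at day 1 and −0.13 at 3 hr. These are single pairs, and the change between the times was not tested.

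Lysosome and autophagy genes had 17 of 24 members above 0 in the day 1 pair, with a median of 0.12. Ctsw, a protease of cytotoxic lymphocytes, was the 1 past 1.5-fold, at 12.18 in the Erk2-deficient and 11.43 in the WT array. Of 18 heat shock proteins and chaperones 16 were below 0, with a median of −0.18, and none was past 1.5-fold. Over all 8922 genes 4120 were above 0 and 4795 below 0.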
